A study of Homo sapiens with 11 samples.

Results

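Phenylacetaldehyde (PAA), an aromatic aldehyde, was applied for 24 h to HCT-116 and RKO, both established human colorectal cancer cell lines, and RNA was sequenced. The question described here is which transcripts that both lines expressed responded differently to PAA in RKO than in HCT-116. The genes were selected on measured values: a gene was kept when its mean FPKM (a level scaled by transcript length and library depth) in the DMSO libraries was 5 or more in both lines. This kept 5623 of the 60612 genes in the deposited table, so that a gene silent in 1 line could not enter. All 5623 passed the filter for testing, an FPKM of 1 or more in 2 or more of the 11 libraries, which 13881 genes passed in all. Of the 5623, 5264 are annotated as protein-coding and 241 as pseudogenes.

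The groups were RKO with PAA (3 libraries), RKO with medium containing 0.1% DMSO as vehicle (2 libraries, numbered 2 and 3), HCT-116 with PAA (3 libraries) and HCT-116 with the same vehicle (3 libraries). The labels give no dose of PAA and no time for the vehicle, and they do not state separate cultures for the replicates, so the p-values reflect only the spread between these libraries, which may be technical. As background, both lines are deficient in DNA mismatch repair. EPCAM, an epithelial surface protein, had 4.61 to 6.06 FPKM in RKO and 87.3 to 95.5 in HCT-116, and KRT18, a simple-epithelium keratin, had 15.8 to 20.8 in RKO and 79.9 to 98.4 in HCT-116. CDH1, the epithelial cadherin, reached at most 0.127 FPKM in RKO and KRT20, a keratin of differentiated colon, at most 0.813 in any library. Of 19 markers of blood, immune, stromal and other cells, 12 stayed under an FPKM of 1 and 2 at 0 in every library, and none was among the 5623 genes. Their summed FPKM was 248 to 251 in RKO with PAA, 207 and 208 in RKO with DMSO, 14.9 to 22.7 in HCT-116 with PAA and 10.5 to 12.9 in HCT-116 with DMSO, of which CD68, a lysosomal membrane protein, made up 203 to 248 in RKO.

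Libraries of 1 group correlated at 0.976 to 0.985 across tested genes, libraries of different treatment within a line at 0.946 to 0.963, and libraries of different lines at 0.792 to 0.831 (Pearson r of log2(FPKM + 1), across genes, which are not independent replicates). Each library had 11634 to 12133 genes at an FPKM of 1 or more. Read counts are not given in the tables, so depth is unknown and no counting intervals can be set. Mitochondrial transcripts made up 18.2% to 18.5% of all FPKM in RKO with PAA against 33.8% and 34.9% in RKO with DMSO, and 31.2% to 31.4% in HCT-116 with PAA against 38.2% to 40.2% in HCT-116 with DMSO. These shares fell in both lines without overlap, and 4 other scalings are therefore given beside the counts.

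Several systems that respond to reactive aldehydes and to protein damage bear on the groups described. The integrated stress response phosphorylates the initiation factor eIF2α and raises the transcription factor ATF4, which drives amino acid synthesis, amino acid import and tRNA charging. NRF2 is released from KEAP1 by electrophiles and drives antioxidant and iron-storage genes. The unfolded protein response raises chaperones of the endoplasmic reticulum through ATF6 and XBP1. Genes of DNA replication are driven by E2F factors at the G1-S boundary, while genes of mitosis are driven later in the cycle through CCAAT boxes and the CHR, a promoter element bound by the DREAM and MuvB complexes.

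The PAA effect in a line is the mean log2(FPKM + 1) of its PAA libraries minus that of its DMSO libraries, and the interaction is the RKO effect minus the HCT-116 effect. A gene is called at an adjusted p under 0.05 by limma's moderated test with Benjamini-Hochberg adjustment over all 13881 tested genes. The DMSO values used to choose the genes are also part of both effects. The share of these genes that was called is therefore given beside that of all tested genes and nothing is read from the difference. NIPBL, a cohesin loader, and PTPN3, a phosphatase, lay just inside the choice, with lower DMSO means of 5.001 FPKM in RKO and 5.003 FPKM in HCT-116. Just outside lay ETS2, a transcription factor, whose mean in RKO with DMSO was 4.999 FPKM, and TRMT61B, a tRNA methyltransferase, whose mean in HCT-116 with DMSO was 4.999 FPKM.

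The interaction was called for 1762 of the 5623 genes (31.3%). The RKO effect was the higher in 1003 of them (17.8%, against 21.3% of all tested genes) and the lower in 759 (13.5%, against 9.68% of all tested genes). The differences were mostly modest: 374 called genes reached an interaction of 0.5 or more and 252 of -0.5 or less (10.8% and 3.95% of all tested genes), while 45 and 48 reached 1 and -1 (1.97% and 0.901% of all tested genes). The median interaction was 0.02 over these genes and 0.08 over all tested genes, with a median standard error of 0.092 over these genes. In all 1762 called genes the 3 RKO libraries with PAA, each set against the mean of the RKO DMSO libraries, lay apart from the 3 HCT-116 libraries treated the same way, as they did in 3399 of the 5623 genes and in 58.7% of all tested genes. The same values decide the call, so this separation lends it no further weight. The spread of the DMSO libraries does not enter it. PAA itself raised 1452 and lowered 1315 of the 5623 genes in RKO (25.7% and 14.3% of all tested genes were called higher and lower) and raised 1450 and lowered 1604 in HCT-116 (21.7% and 25.3% of all tested genes). The same shares apply to the counts by line given for gene lists below.

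**Figure D1:**
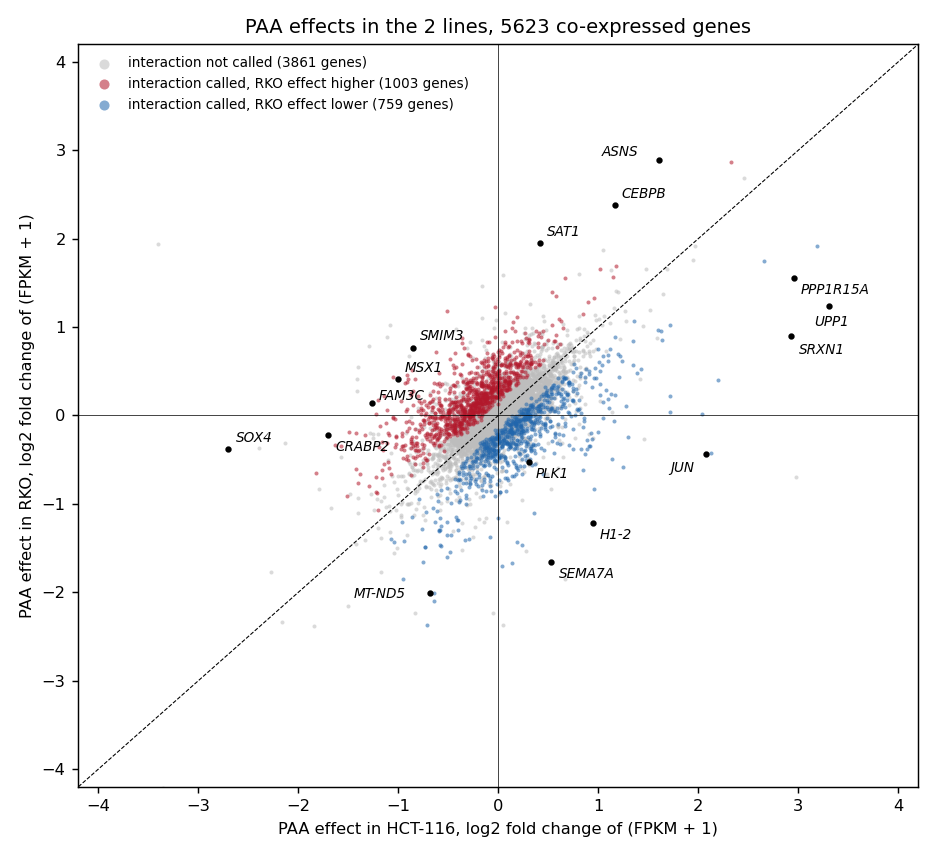
PAA effect in RKO (vertical axis) against the PAA effect in HCT-116 (horizontal axis), both as log2 fold change of FPKM + 1, with 1 point for each of the 5623 co-expressed genes and the dashed line where the effects are equal. The 1003 genes called with a higher RKO effect lie above the line, among them SOX4 and ASNS, and the 759 called with a lower one lie below it, among them JUN and SEMA7A.

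Where both lines were called, the direction was mostly shared. Of 1967 genes called in both lines, 1710 moved the same way and 257 moved in opposite directions (4.57% of the 5623 genes, against 3.99% of all tested genes), and the interaction was called in all 257 and in 510 of the 1710. Across the 5623 genes the effects of the lines correlated with a Pearson r of 0.555, given as a description across genes that share libraries. Other called interactions went with a call in 1 line alone. With PAA, 330 genes fell and 195 rose in HCT-116 without a call in RKO. In RKO 183 fell and 254 rose without a call in HCT-116. Another 140 fell in both lines more in RKO and 137 more in HCT-116, 114 rose in both more in RKO and 119 more in HCT-116. In the opposite class, 149 genes rose in RKO and fell in HCT-116, and 108 fell in RKO and rose in HCT-116. The remaining 19 higher and 14 lower interactions had no call in either line alone. Apart from the 257 opposite genes, these classes were counted over the 5623 genes only, so no share of all tested genes stands beside them. A missing call in a line does not show that the gene was unchanged there.

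The balance of higher and lower calls depended on how libraries were scaled. With the FPKM as deposited, 56.9% of the calls were higher in RKO. The share was 64.3% (1109 higher, 615 lower) with a common total of nuclear genes, 84.6% (1801 and 327) with a common total of all genes, 48.1% (822 and 886) with quantile normalization and 33.1% (635 and 1283) with median-of-ratios factors. The common total of all genes moved the median interaction of all tested genes by 0.133. It moved their median RKO effect from 0.059 to 0.277 and their median HCT-116 effect from -0.007 to 0.069. Small effects within a line can therefore change direction with the scaling. For single genes the alternatives are given for the interaction only. Of the 1762 calls, 1618 were also called with a common total of nuclear genes, 1330 with a common total of all genes, 1501 with quantile normalization and 1394 with median-of-ratios factors. None of these had changed sign in the 3 scalings by a single factor per library, and 1, MT-ND1, had with quantile normalization. Of the 43 gene lists, 17 had more higher than lower calls and 20 the reverse, against 31 and 7 with a common total of all genes and 9 and 31 with median-of-ratios factors.

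**Figure D2:**
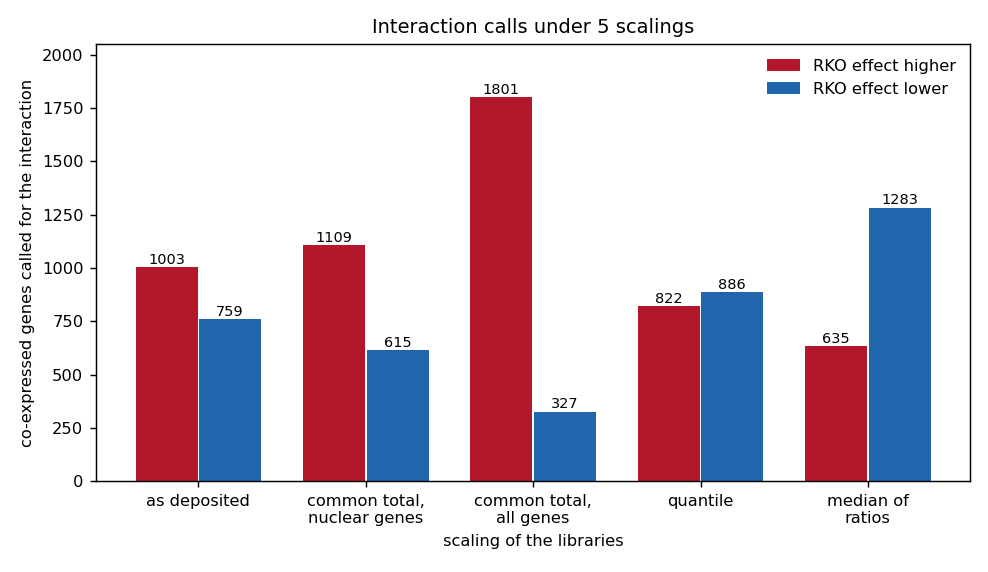
Number of the 5623 co-expressed genes called for the interaction (vertical axis) under 5 scalings of the libraries (horizontal axis), with the RKO effect higher in red and lower in blue. Higher calls ranged from 635 with median-of-ratios factors to 1801 with a common total of all genes, and lower calls from 1283 to 327.

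Among the 12 genes with the largest positive interactions, named for that value, 11 fell with PAA in HCT-116, and 7 of these rose in RKO. SOX4, a transcription factor of progenitor cells (chromosome 6, 21592768 to 21598619), had the largest interaction, 2.32 ± 0.077 (SE; limma, adjusted p = 2.81e-07). It had 4.58, 4.88 and 4.53 FPKM with PAA against 6.73 and 5.997 with DMSO in RKO, and 3.89, 3.903 and 4.09 FPKM with PAA against 32.9, 30.3 and 30.6 with DMSO in HCT-116. SOX4 fell in both lines, and the large gap between the lines with DMSO was nearly closed with PAA. CRABP2, which carries retinoic acid to its nuclear receptor (chromosome 1, 156699606 to 156705816), had 14.3, 15.1 and 18.96 FPKM with PAA against 17.4 and 20.4 with DMSO in RKO, and 32.9, 26.6 and 34.4 FPKM with PAA against 108, 115 and 88.8 with DMSO in HCT-116, with an interaction of 1.48 ± 0.21. The RKO groups overlapped and the HCT-116 groups did not. FAM3C, a secreted cytokine-like protein (chromosome 7, 121348851 to 121396364), had 38.2, 35.5 and 41.8 FPKM with PAA against 35.1 and 34.6 with DMSO in RKO, and 55.5, 53.7 and 57.6 FPKM with PAA against 137, 136 and 133 with DMSO in HCT-116 (interaction 1.40 ± 0.081). It had no call in RKO (adjusted p = 0.104).

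MSX1, a homeobox transcription factor, rose in RKO and fell in HCT-116, with 18.97, 17.1 and 15.7 FPKM with PAA against 13.04 and 12.3 with DMSO in RKO, and 19.8, 22.3 and 20.8 FPKM with PAA against 42.5, 41.6 and 45.1 with DMSO in HCT-116, and PAA left it at close levels in the lines (interaction 1.42 ± 0.10). LAMB1, a laminin chain of basement membranes, had 12.7, 12.8 and 13.04 FPKM with PAA against 11 and 11.6 with DMSO in RKO, and 2.99, 2.61 and 2.57 FPKM with PAA against 7.69, 7.57 and 7.503 with DMSO in HCT-116. Its fall in HCT-116 (-1.21 ± 0.047) was the larger change, beside a small rise in RKO (0.17 ± 0.053). METRN, a secreted neurotrophic factor, showed the same order of effects, 0.22 in RKO and -1.14 in HCT-116. PAQR4, a membrane protein of the progestin and adipoQ receptor family, had an interaction of 1.49 ± 0.25, with HCT-116 DMSO libraries as far apart as 7.54 and 12.8 FPKM.

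SAT1 rose in both lines. It encodes the acetyltransferase that starts polyamine breakdown (chromosome X, 23783173 to 23786226), and had 54.5, 51.7 and 55.2 FPKM with PAA against 13.7 and 12.7 with DMSO in RKO, and 52.4, 51.6 and 52.6 FPKM with PAA against 37.5, 40.6 and 38.6 with DMSO in HCT-116. The lines had overlapping SAT1 levels with PAA and a lower level in RKO with DMSO, with effects of 1.95 ± 0.047 and 0.42 ± 0.042 and an interaction of 1.53 ± 0.063 (adjusted p = 8.14e-07). ODC1, ornithine decarboxylase at the start of polyamine synthesis, went the other way, with 197, 195 and 196 FPKM with PAA against 216 and 213 with DMSO in RKO, and 311, 303 and 304 FPKM with PAA against 222, 217 and 224 with DMSO in HCT-116, and an interaction of -0.60 ± 0.034. The 4 remaining genes of this group, SMIM3, GCAT, LZTS2 and SLC17A5, changed in opposite directions and are described with that class. RPL41P5, a ribosomal protein pseudogene, had an interaction of a size that would have placed it here and was passed over because its reads can come from its parent gene.

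**Figure D3:**
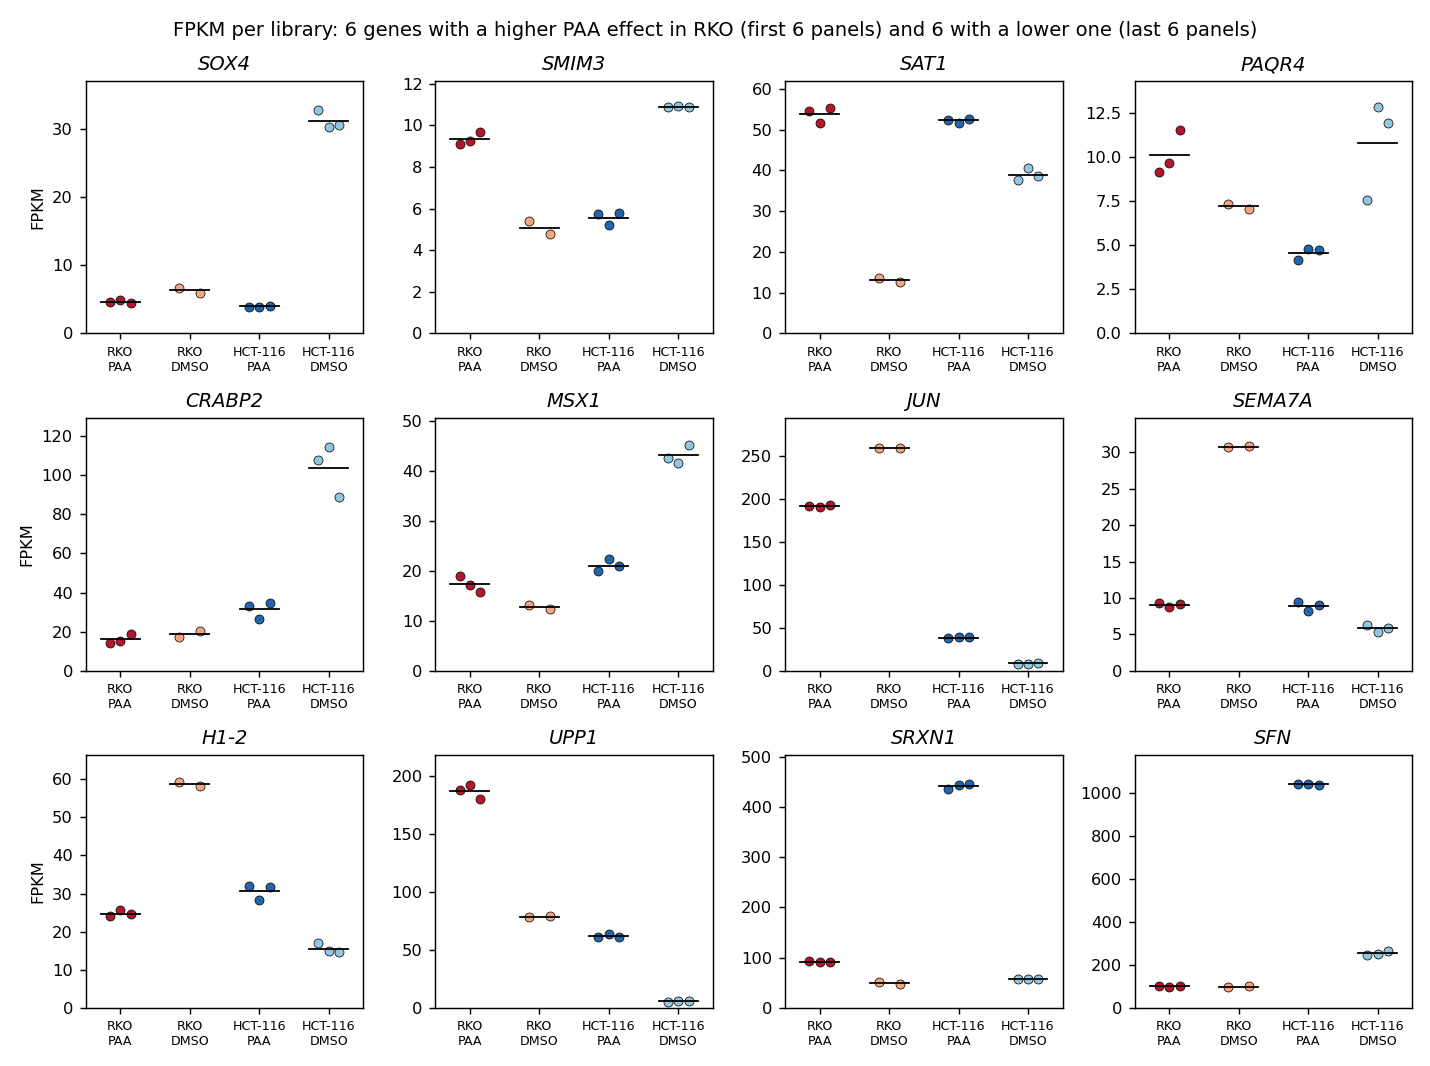
FPKM in each library (vertical axes, linear from 0) for the 6 genes with the largest positive interaction and 6 of those with the largest negative one, with 1 point per library, a line at the group mean, and the groups RKO PAA, RKO DMSO, HCT-116 PAA and HCT-116 DMSO from left to right. SOX4 with PAA lies between 3.89 and 4.88 FPKM in both lines against 30.3 to 32.9 in HCT-116 with DMSO, and JUN lies between 190.3 and 259 FPKM in every RKO library against at most 38.8 in HCT-116.

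Of 11 genes among those with the largest negative interactions, also named for that value, 5 fell in RKO and rose in HCT-116, 3 rose in both lines and more in HCT-116, 2 fell in RKO alone and 1 rose in HCT-116 alone. JUN, a subunit of the AP-1 transcription factor (chromosome 1, 58780788 to 58784327), had 192, 190.3 and 193 FPKM with PAA against 259 and 259 with DMSO in RKO, and 37.5, 38.8 and 38.8 FPKM with PAA against 7.94, 8.25 and 8.79 with DMSO in HCT-116. Its effects were -0.43 ± 0.040 in RKO and 2.08 ± 0.036 in HCT-116, an interaction of -2.51 ± 0.053 (limma, adjusted p = 3.6e-08). JUN fell in RKO and rose in HCT-116, and every HCT-116 library stayed below every RKO library.

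SEMA7A, a membrane-anchored semaphorin (chromosome 15, 74409289 to 74433958), had 9.29, 8.75 and 9.19 FPKM with PAA against 30.7 and 30.9 with DMSO in RKO, and 9.42, 8.18 and 9.05 FPKM with PAA against 6.301, 5.37 and 5.87 with DMSO in HCT-116. Its levels with PAA were close in the lines, after a fall in RKO and a rise in HCT-116 (interaction -2.19 ± 0.092). ANGPTL4, a secreted inhibitor of lipoprotein lipase, fell in RKO, with 6.82, 6.76 and 7.28 FPKM with PAA against 24.6 and 25.04 with DMSO, and had no call in HCT-116, where it had 5.76, 5.97 and 5.29 FPKM with PAA against 5.28, 4.92 and 6.35 with DMSO. TMSB4X, which sequesters actin monomers, had 8.92, 8.51 and 9.84 FPKM with PAA against 30.3 and 31.97 with DMSO in RKO, and 75.4, 79.2 and 73.7 FPKM with PAA against 68.98, 68.8 and 69.4 with DMSO in HCT-116. TMSB4X fell in RKO (-1.67 ± 0.057) and had no call in HCT-116 (0.14 ± 0.051), and its reads may be shared with processed pseudogenes.

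UPP1, uridine phosphorylase (chromosome 7, 48088628 to 48108733), rose in both lines, with 188, 192 and 180.3 FPKM with PAA against 78.2 and 79.1 with DMSO in RKO, and 61.1, 63.4 and 61.3 FPKM with PAA against 4.84, 5.77 and 5.53 with DMSO in HCT-116. Its rise in HCT-116 (3.31 ± 0.053) exceeded that in RKO (1.24 ± 0.060), although the RKO libraries with PAA held the highest levels. SFN, or stratifin, a cell cycle inhibitor of epithelia, rose in HCT-116 alone, with 100.5, 95.5 and 102 FPKM with PAA against 95.1 and 102 with DMSO in RKO, and 1043, 1043 and 1041 FPKM with PAA against 247, 249 and 266 with DMSO in HCT-116. LAMB3, a chain of epithelial laminin, rose in both lines and more in HCT-116, with 198, 203 and 178 FPKM with PAA against 154 and 138 with DMSO in RKO, and 80.9, 84.6 and 80.3 FPKM with PAA against 17, 16.6 and 17.6 with DMSO in HCT-116 (interaction -1.80 ± 0.089). SRXN1, the remaining gene of this group that rose in both lines, is given with the NRF2 targets.

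Genes changed in opposite directions were named by the smaller of both effects. SMIM3, a small membrane protein, had 9.11, 9.22 and 9.7 FPKM with PAA against 5.38 and 4.79 with DMSO in RKO, and 5.73, 5.196 and 5.78 FPKM with PAA against 10.9, 10.9 and 10.9 with DMSO in HCT-116, with effects of 0.77 ± 0.057 in RKO and -0.86 ± 0.051 in HCT-116. By the smaller of both effects it ranked first among 148 genes that rose in RKO and fell in HCT-116. These 148 had a symbol, with pseudogenes and short genes left out. SLC17A5, the lysosomal exporter of sialic acid, had 12.6, 11.7 and 12.1 FPKM with PAA against 7.25 and 6.71 with DMSO in RKO, and 8.59, 8.96 and 8.68 FPKM with PAA against 13.8, 14.1 and 14.2 with DMSO in HCT-116. The order of the lines for SLC17A5 with DMSO, RKO below HCT-116, was turned round with PAA. GCAT, a mitochondrial enzyme of threonine breakdown, had 15.2, 15.6 and 14.7 FPKM with PAA against 9.97 and 10.6 with DMSO in RKO, and 10.1, 10.01 and 12.1 FPKM with PAA against 21.2, 19.5 and 20.4 with DMSO in HCT-116. GCAT showed the same reversal of order, with an interaction of 1.38 ± 0.10. GNPDA1, which deaminates glucosamine-6-phosphate, had effects of 0.64 ± 0.048 in RKO and -0.48 ± 0.043 in HCT-116, LZTS2, a leucine zipper protein, of 0.45 ± 0.055 and -0.92 ± 0.049, and LENG8 of 0.56 ± 0.17 and -0.46 ± 0.15.

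Among the 108 genes that fell in RKO and rose in HCT-116, H1-2, a linker histone (chromosome 6, 26055787 to 26056428), had 24.1, 25.6 and 24.5 FPKM with PAA against 59.2 and 58.2 with DMSO in RKO, and 32.1, 28.3 and 31.6 FPKM with PAA against 17.1, 14.9 and 14.6 with DMSO in HCT-116. It was the higher in RKO with DMSO and the higher in HCT-116 with PAA, and its relatives in the histone cluster are similar in sequence, so reads may be shared. RHOF, a small GTPase of filopodia, had 6.104, 5.93 and 5.63 FPKM with PAA against 11.2 and 11.4 with DMSO in RKO, and 22.1, 21.9 and 20.1 FPKM with PAA against 9.65, 9.77 and 12.3 with DMSO in HCT-116, with effects of -0.83 ± 0.093 and 0.96 ± 0.083. The lines had close RHOF levels with DMSO and lay far apart with PAA. AXL, a receptor tyrosine kinase, had 86.8, 94.8 and 83.8 FPKM with PAA against 128 and 122 with DMSO in RKO, and 32.3, 33.5 and 31.3 FPKM with PAA against 13.8, 14.1 and 14.8 with DMSO in HCT-116, and an interaction of -1.62 ± 0.077. SEMA7A, described with the largest negative interactions, belongs to the same class, as does C19orf33, with effects of -0.59 ± 0.13 in RKO and 1.25 ± 0.11 in HCT-116.

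Metallothioneins are small cysteine-rich proteins that bind zinc and copper. MT1X had 50.6, 50.2 and 51.7 FPKM with PAA against 78.4 and 78.7 with DMSO in RKO, and 38.9, 39.96 and 39.8 FPKM with PAA against 21.01, 21.8 and 21.6 with DMSO in HCT-116, and an interaction of -1.47 ± 0.042 (limma, adjusted p = 1.62e-07). MT2A had 1531, 1459 and 1547 FPKM with PAA against 1915 and 2028 with DMSO in RKO, and 879.6, 799 and 892 FPKM with PAA against 481, 514 and 456 with DMSO in HCT-116 (interaction -1.21 ± 0.083, and -0.47 with quantile normalization). MT1X and MT2A were higher in RKO in either treatment, and the distance to HCT-116 was smaller with PAA. MT1E had an interaction of -0.38 ± 0.076, with no call under a common total of all genes or quantile normalization. Metallothioneins are near-identical in sequence, so the split of reads among them is uncertain. Of the 12 co-expressed genes in the list of metallothioneins and zinc transporters, 2 had a higher and 3 a lower RKO effect (21.3% and 9.68% of all tested genes). Their median interaction of -0.08 was 0.08 under a common total of all genes. The counts were 4 higher and 2 lower with a common total of all genes, and 0 and 4 with median-of-ratios factors. Of the 2 higher, SLC30A1, a zinc exporter (interaction 0.25 ± 0.074), lost the call in 12 of the alternatives.

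Some responses were alike in size in both lines. They were counted among the co-expressed genes with a symbol, with pseudogenes and genes under 200 bases left out. Genes that rose in both lines with a 95% interval of the interaction within 0.3 of 0 numbered 381. Genes that fell in both lines by the same criterion numbered 349. The criterion was not counted over all tested genes, so no share stands beside these numbers. NPC1, a cholesterol exporter of lysosomes, had 16.6, 15.3 and 16.1 FPKM with PAA against 6.28 and 6.76 with DMSO in RKO, and 15.5, 15.6 and 15.7 FPKM with PAA against 5.95, 6.14 and 5.65 with DMSO in HCT-116. Its effects, 1.18 ± 0.049 in RKO and 1.26 ± 0.044 in HCT-116, were among the largest alike rises. CEBPG, a stress-responsive C/EBP factor, had effects of 1.02 ± 0.042 and 1.03 ± 0.037, and SLC7A1, the importer of arginine and lysine, of 0.89 ± 0.037 and 0.85 ± 0.033. ARHGEF2 (1.22 and 1.15), a guanine nucleotide exchange factor, TAX1BP1 (0.94 and 0.89), an autophagy receptor, and the host RNA SNHG29 (1.04 and 1.11) complete the 6 genes named by rule. With a common total of all genes the interactions of ARHGEF2 (0.23), TAX1BP1 (0.21) and SLC7A1 (0.21) were called.

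Alike falls were named by the same rule. CCNE2, cyclin E2 of the G1-S transition, had 4.35, 3.98 and 4.32 FPKM with PAA against 12.8 and 13.7 with DMSO in RKO, and 2.05, 1.64 and 1.45 FPKM with PAA against 5.96, 6.71 and 6.13 with DMSO in HCT-116, and effects of -1.45 ± 0.089 in RKO and -1.43 ± 0.080 in HCT-116. PCNA, the sliding clamp of replication, had 77.2, 91.1 and 89.3 FPKM with PAA against 184 and 178 with DMSO in RKO, and 92.4, 99.9 and 92.8 FPKM with PAA against 193, 195 and 192 with DMSO in HCT-116. MCM2, a subunit of the replicative helicase, had effects of -0.98 ± 0.066 and -0.96 ± 0.059. The neuropeptide gene NMU (-1.08 and -1.08) and WDR76 (-0.999 and -0.89) fell by like amounts. With a pseudocount of 5 the interactions of CCNE2 (-0.24) and NMU (0.26) were called. TUBB, a beta-tubulin of the spindle, had effects of -1.07 ± 0.028 and -1.20 ± 0.025. Its interaction of 0.13 ± 0.037 was small and called (limma, adjusted p = 0.0291), but the call was lost in 12 alternatives, among them median-of-ratios factors, isoform sums and the fits without HCT-116 PAA replicates 1 or 3, HCT-116 DMSO replicates 1 or 3, RKO PAA replicate 1 or either RKO DMSO library, and with quantile normalization the value was -0.10 with no call.

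Mitochondrially encoded genes fell in both lines, and all 13 were called with a further fall in RKO (9.68% of all tested genes were called lower). Their median effect was -1.30 in RKO and -0.51 in HCT-116, and the median interaction was -0.83, against 0.08 over all tested genes. MT-ND6, a complex I subunit encoded on the opposite strand to the others (mitochondrial chromosome, 14149 to 14673), had 979.8, 957 and 935 FPKM with PAA against 3693 and 4033 with DMSO in RKO, and 2003, 1953 and 2006 FPKM with PAA against 3080, 3304 and 2928 with DMSO in HCT-116. MT-ND5, whose gene adjoins it, had 767, 766 and 752 FPKM with PAA against 2998 and 3134 with DMSO in RKO, and 1728, 1750 and 1734 FPKM with PAA against 2828, 2885 and 2680 with DMSO in HCT-116. These 2 genes had the largest interactions of the list, -1.37 ± 0.072 and -1.32 ± 0.046. MT-CYB, the complex III subunit, followed with -1.10 ± 0.050. The mean FPKM of each of these 3 genes was lower in RKO than in HCT-116 with PAA and higher in RKO with DMSO. Whether the counting used strand is not given in the sources used here, so reads of MT-ND6 and of transcripts on the other strand cannot be told apart.

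MT-ND1, a complex I subunit, had the smallest interaction of the 13, -0.41 ± 0.057, with 1717, 1717 and 1661 FPKM with PAA against 2821 and 2954 with DMSO in RKO, and 3597, 3625 and 3681 FPKM with PAA against 4754, 4833 and 4381 with DMSO in HCT-116. With quantile normalization, which forces equal distributions on the libraries, its interaction was 0.25 and called, and of the 13 genes 1 was then called higher and 8 lower. The median of the list lay between -0.95 and -0.19 across the alternatives. Reads of these genes can also come from nuclear copies of mitochondrial DNA. Of 43 nuclear genes of oxidative phosphorylation, 7 had a higher and 3 a lower RKO effect (21.3% and 9.68% of all tested genes). Their median interaction of 0.07 was -0.04 with median-of-ratios factors. The counts were 15 higher and 1 lower with a common total of all genes, and 3 and 6 with median-of-ratios factors. TFAM, which packages mitochondrial DNA, had an interaction of -0.50 ± 0.12, with no call under a common total of all genes or without RKO DMSO replicate 3.

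Genes of mitosis and the G2-M transition had the most negative median interaction of the nuclear gene lists. Of 41, 30 had a lower RKO effect and 1 a higher one (9.68% and 21.3% of all tested genes). Of the 41, 31 fell and 1 rose with PAA in RKO, while 14 rose and 9 fell in HCT-116, and 12 were called in opposite directions. The median effect was -0.46 in RKO and 0.07 in HCT-116, and the median interaction -0.56, between -0.67 and -0.41 across the alternatives. In bulk RNA, fewer cells in mitosis and less RNA per cell cannot be told apart. PLK1, a kinase of mitotic entry and the spindle (chromosome 16, 23677656 to 23690367), had 14.9, 16.2 and 13.8 FPKM with PAA against 22.4 and 21.6 with DMSO in RKO, and 37.8, 37.7 and 36.6 FPKM with PAA against 30.2, 29.5 and 30.8 with DMSO in HCT-116. The PLK1 groups did not overlap in either line, and the gene fell in RKO (-0.53 ± 0.059) and rose in HCT-116 (0.30 ± 0.053; interaction -0.83 ± 0.080, limma, adjusted p = 9.79e-05).

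CCNB1 and CCNB2, the B-type cyclins that activate CDK1, moved as PLK1 did. CCNB1 had 44.5, 44.7 and 45.4 FPKM with PAA against 60.3 and 60.9 with DMSO in RKO, and 97.9, 94.7 and 98.2 FPKM with PAA against 74.7, 74.7 and 76.1 with DMSO in HCT-116, and CCNB2 had effects of -0.18 ± 0.057 in RKO and 0.41 ± 0.051 in HCT-116. CCNA2, cyclin A2 of S phase and G2, had 22.3, 22.4 and 21.9 FPKM with PAA against 42.4 and 40.3 with DMSO in RKO, and 44.4, 46.6 and 47.05 FPKM with PAA against 46.5, 44.99 and 44.9 with DMSO in HCT-116. It fell in RKO (-0.87 ± 0.038) and had no call in HCT-116 (0.02 ± 0.034), which gave it the largest called interaction of the list, -0.89 ± 0.050. ASPM, a protein of the spindle poles, had an interaction of -0.83 ± 0.069. FOXM1, a transcription factor of G2-M genes, had -0.84 ± 0.24, with no call in 4 of the alternatives, among them the fits without HCT-116 PAA replicate 2, HCT-116 DMSO replicate 2 and RKO DMSO replicate 3. CDK1, the kinase of mitotic entry, and TOP2A, a topoisomerase, fell in both lines and more in RKO, with interactions of -0.52 ± 0.13 and -0.56 ± 0.054, and CDK1 lost the call without RKO DMSO replicate 2. BUB3, a checkpoint protein, was the gene called the other way (interaction 0.34 ± 0.051).

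**Figure D4:**
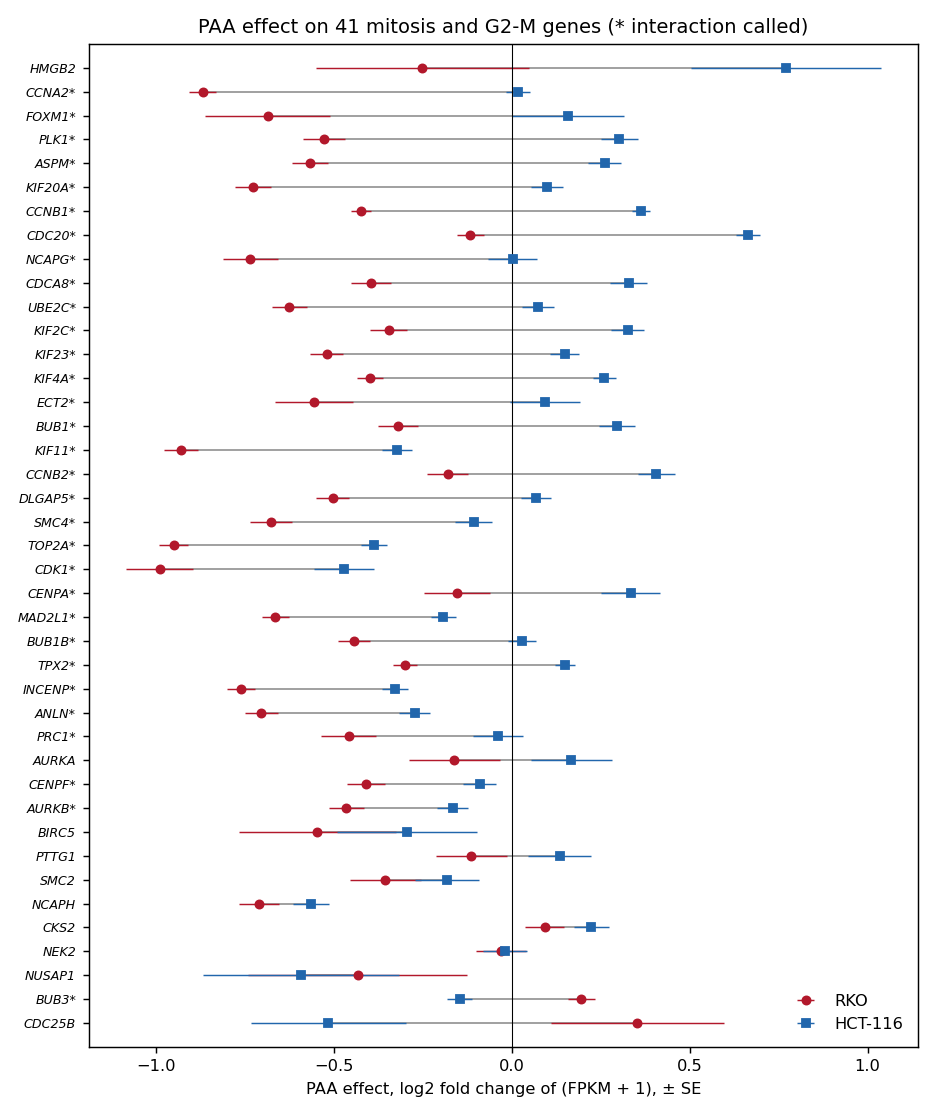
PAA effect (horizontal axis, log2 fold change of FPKM + 1, bars for the standard error) of the 41 co-expressed mitosis and G2-M genes in RKO (circles) and HCT-116 (squares), ordered by their interaction with the most negative on top and with called interactions starred. RKO lies left of HCT-116 for the 30 genes called lower, and 12 genes have opposite called effects.

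DNA replication and G1-S genes mostly fell in both lines. Of 45, 38 fell with PAA in RKO and 40 in HCT-116 (14.3% and 25.3% of all tested genes), with median effects of -0.57 and -0.60. The interaction was called higher for 7 and lower for 8 (21.3% and 9.68% of all tested genes). Its median, -0.02 as deposited, was 0.14 under a common total of all genes. The counts were 15 higher and 2 lower with a common total of all genes, and 3 and 12 with median-of-ratios factors. E2F1, an activating E2F factor, fell more in HCT-116, with 19.7, 22.1 and 17.9 FPKM with PAA against 24.1 and 23.4 with DMSO in RKO, and 7.201, 7.39 and 7.77 FPKM with PAA against 13.5, 13.2 and 15.2 with DMSO in HCT-116 (interaction 0.58 ± 0.11). CDT1, a licensing factor, rose in RKO (0.21 ± 0.063) and fell in HCT-116 (-0.30 ± 0.056), the 1 gene of the list in opposite directions. CDC25A, a phosphatase that activates CDK2, fell in both and more in RKO (interaction -0.46 ± 0.073). CDC6 (interaction -0.54 ± 0.16) and ORC6 (interaction -0.47 ± 0.15), both of origin licensing, lost the call in 7 and 15 alternatives.

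The promoters of these cell cycle lists were searched for the letters TTTGAA, the CHR. RefSeq windows of 300 bases on GRCh38.p14, from 250 bases before to 50 after the annotated start, were matched by symbol for 4391 of the co-expressed genes and searched on both strands. The letters occurred in 24 of 34 mitosis and G2-M windows (70.6%) and in 1 of 39 DNA replication and G1-S windows (2.56%), against 8.95% of the co-expressed genes and 15.4% of all 27305 windows. Among all co-expressed genes they occurred in 16.2% of windows with a lower RKO effect, 6.84% with a higher one and 8.03% with no call, and in 13.4% of the lower group without the genes of the mitosis list. The pentamer CCAAT occurred in 45.2%, 35.6% and 37.4% of the same 3 groups and in 35.7% of all windows. Of the 24 mitosis genes with TTTGAA 21 had a lower RKO effect, and of the 10 without it 6 did. Their median interactions were close, -0.57 with TTTGAA and -0.46 without it. For CCAAT in the same list, 22 of 27 with it and 5 of 7 without it had a lower RKO effect. A match describes the letters only. The windows of PLK1 (chr16:23678639-23678938, + strand) and CCNB2 (chr15:59104896-59105195, + strand) are shown because both hold TTTGAA at the same distance, with its first base 29 bases before the start. With the FPKM as deposited, both genes also fell in RKO and rose in HCT-116. The fall of CCNB2 in RKO was small, and its direction under the other scalings is not given. Capitals mark TTTGAA.
PLK1: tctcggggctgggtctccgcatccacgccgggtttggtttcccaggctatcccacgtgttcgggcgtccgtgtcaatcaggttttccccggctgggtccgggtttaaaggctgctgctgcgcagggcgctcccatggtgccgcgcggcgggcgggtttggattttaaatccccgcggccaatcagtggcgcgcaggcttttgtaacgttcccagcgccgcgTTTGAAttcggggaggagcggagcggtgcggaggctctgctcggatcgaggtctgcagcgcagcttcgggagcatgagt
CCNB2: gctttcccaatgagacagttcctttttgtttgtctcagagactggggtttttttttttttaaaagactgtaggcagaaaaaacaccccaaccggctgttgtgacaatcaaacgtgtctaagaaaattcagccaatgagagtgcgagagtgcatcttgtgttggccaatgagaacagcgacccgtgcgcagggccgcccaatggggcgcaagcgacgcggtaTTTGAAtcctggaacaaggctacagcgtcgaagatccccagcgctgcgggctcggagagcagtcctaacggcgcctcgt

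Of 25 genes of endoplasmic reticulum chaperones and the unfolded protein response, 14 had a lower RKO effect and 1 a higher one (9.68% and 21.3% of all tested genes). The median interaction was -0.29 (between -0.40 and -0.12 across the alternatives), against 0.08 over all tested genes. The counts depended on the scaling, with 4 higher and 6 lower with a common total of all genes, and 0 and 17 with median-of-ratios factors. In HCT-116 19 rose and 4 fell, in RKO 12 rose and 10 fell, and 5 were called in opposite directions. HSPA5, the chaperone BiP (chromosome 9, 125234853 to 125241330), rose in both lines, with 443, 442 and 445 FPKM with PAA against 332 and 324 with DMSO in RKO, and 634, 639.6 and 641 FPKM with PAA against 274, 275 and 280.0 with DMSO in HCT-116. The rise in HCT-116 (1.20 ± 0.021) was larger than in RKO (0.43 ± 0.024), an interaction of -0.77 ± 0.032 (limma, adjusted p = 8.47e-07) that was -0.35 with quantile normalization. CALR, the calcium-binding chaperone calreticulin, fell in both and more in RKO, with 218, 216 and 198 FPKM with PAA against 423 and 408 with DMSO in RKO, and 242, 230.4 and 234 FPKM with PAA against 303, 312 and 314 with DMSO in HCT-116. Its interaction, -0.58 ± 0.061, was not called when isoform values were summed.

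SSR1, a subunit of the translocon-associated complex, fell in RKO and rose in HCT-116, with 8.82, 12.3 and 8.59 FPKM with PAA against 15.6 and 16.6 with DMSO in RKO, and 12.2, 10.7 and 9.199 FPKM with PAA against 7.13, 8.93 and 6.68 with DMSO in HCT-116 (interaction -1.11 ± 0.22). With the FPKM as deposited, HSP90B1, P4HB, PDIA3 and MANF, chaperones and disulfide isomerases of the same compartment, also fell in RKO and rose in HCT-116. Their interactions were -0.40, -0.48, -0.44 and -0.33. The fall of HSP90B1 in RKO was small, -0.16 (limma, adjusted p = 0.0493). Directions within RKO under the other scalings are not given for these genes. The interactions of HSP90B1 and MANF had no call under a common total of all genes, where that of P4HB was -0.32 and that of PDIA3 -0.27. Those of HSP90B1 and P4HB had none when isoform values were summed. CANX, the lectin chaperone calnexin, rose in HCT-116 (0.42 ± 0.12) and had no call in RKO (-0.24 ± 0.13). Its interaction of -0.65 ± 0.18 lost the call under a common total of all genes, without a filter on low values and without either RKO DMSO library. The transcription factor XBP1 rose in both lines with no interaction call (interaction 0.20 ± 0.16; adjusted p = 0.409), and ATF6 rose in both and less in RKO (interaction -0.36 ± 0.064), with no call under a common total of all genes.

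The ER stress element (ERSE), the letters CCAAT, then 9 bases of any kind, then CCACG, was searched in the same windows on both strands and overlaps the CCAAT search by construction. It occurred in 8 of the 4391 windows (0.182%), against 0.0806% of all 27305 windows. The 8 genes were HSPA5, CANX, CALR, HSP90B1, CRELD2, SERP1, XBP1 and EIF2A, of which the first 6 had a called lower RKO effect, from -0.77 for HSPA5 to -0.26 for SERP1. Under a common total of all genes CANX, HSP90B1, CRELD2 (-0.20) and SERP1 (-0.09) lost the call, which leaves 2 of the 6, and CRELD2 also lost it with a pseudocount of 5, with isoform sums and without RKO DMSO replicate 3. CRELD2 encodes an endoplasmic reticulum protein of disulfide exchange and SERP1 a protein that associates with the translocon. EIF2A, a translation factor, was the one called higher in RKO (interaction 0.63 ± 0.15). Within the list, 6 of the 7 genes with the element had a lower RKO effect, as did 7 of the 16 without it. The windows of HSPA5 (chr9:125241294-125241593, - strand), CALR (chr19:12938359-12938658, + strand) and CANX (chr5:179698679-179698978, + strand) are shown because these chaperones had the most negative interactions among genes with the element. Capitals mark CCAAT and CCACG, or their complement ATTGG and CGTGG in CALR.
HSPA5: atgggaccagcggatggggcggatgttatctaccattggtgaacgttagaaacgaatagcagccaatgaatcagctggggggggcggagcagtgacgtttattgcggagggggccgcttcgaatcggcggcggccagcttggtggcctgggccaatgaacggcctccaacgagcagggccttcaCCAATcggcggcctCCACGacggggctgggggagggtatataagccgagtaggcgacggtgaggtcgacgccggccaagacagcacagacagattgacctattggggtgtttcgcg
CALR: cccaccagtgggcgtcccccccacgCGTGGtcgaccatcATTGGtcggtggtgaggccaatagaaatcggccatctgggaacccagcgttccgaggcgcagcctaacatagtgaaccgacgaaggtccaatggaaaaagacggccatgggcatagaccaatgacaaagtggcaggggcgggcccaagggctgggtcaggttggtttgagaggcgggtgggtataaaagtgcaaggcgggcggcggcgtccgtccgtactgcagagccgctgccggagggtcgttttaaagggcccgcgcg
CANX: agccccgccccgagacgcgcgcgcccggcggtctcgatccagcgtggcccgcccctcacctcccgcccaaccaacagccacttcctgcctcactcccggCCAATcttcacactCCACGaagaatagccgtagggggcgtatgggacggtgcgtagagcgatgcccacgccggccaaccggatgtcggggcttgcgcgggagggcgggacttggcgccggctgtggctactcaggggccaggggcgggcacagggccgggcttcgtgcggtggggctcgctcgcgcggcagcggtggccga

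Most integrated stress response genes rose in both lines, and more of them had a higher than a lower RKO effect. Of 23, 20 rose with PAA in RKO and 18 in HCT-116, 11 had a higher and 3 a lower RKO effect (21.3% and 9.68% of all tested genes), and the median interaction was 0.24, against 0.08 over all tested genes (between 0.12 and 0.40 across the alternatives). The counts were 14 higher and 2 lower with a common total of all genes, and 9 and 4 with median-of-ratios factors. The list held 37 genes, of which these 23 reached the DMSO level in both lines. ASNS, asparagine synthetase (chromosome 7, 97852118 to 97872542), had 63.2, 58.8 and 68.5 FPKM with PAA against 8.45 and 6.95 with DMSO in RKO, and 68.99, 64.8 and 63.2 FPKM with PAA against 17.9, 22.96 and 22.2 with DMSO in HCT-116. PAA brought ASNS to like levels from a lower DMSO level in RKO, with an interaction of 1.29 ± 0.15 (limma, adjusted p = 0.000358). CEBPB, a C/EBP transcription factor, had 169, 183 and 159.8 FPKM with PAA against 31.2 and 32.7 with DMSO in RKO, and 82.6, 84.8 and 82.1 FPKM with PAA against 37.5, 34.7 and 37.9 with DMSO in HCT-116, and an interaction of 1.22 ± 0.081. In CEBPB the RKO libraries with PAA were the highest of all.

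The serine synthesis enzymes belonged to the higher group. PSAT1, phosphoserine aminotransferase, had 117, 109.7 and 122 FPKM with PAA against 40.2 and 37.7 with DMSO in RKO, and 131, 131 and 133 FPKM with PAA against 82.4, 83.6 and 82.8 with DMSO in HCT-116 (interaction 0.89 ± 0.061), PSPH, the phosphatase of the last step, had an interaction of 0.78 ± 0.075, and PHGDH, the first enzyme, of 0.44 ± 0.10. The call of PHGDH was lost with isoform sums, and its value was 0.28 with a pseudocount of 5, where PSPH had 0.52. SHMT2, which splits serine for one-carbon units in mitochondria, rose in RKO (0.57 ± 0.038) and had no call in HCT-116 (0.03 ± 0.034). TRIB3, a pseudokinase induced by ATF4, and SLC7A5, a subunit of the large neutral amino acid transporter, rose in both and more in RKO (interactions 0.54 and 0.42). Cytosolic aminoacyl-tRNA synthetases, which charge tRNAs, had 8 of 19 with a higher RKO effect and none lower (21.3% and 9.68% of all tested genes). Their median interaction was 0.21, against 0.08 over all tested genes. EPRS1 had 82.9, 80.5 and 82.9 FPKM with PAA against 48.1 and 47 with DMSO in RKO, and 67.8, 66.5 and 66.3 FPKM with PAA against 51.8, 51.5 and 48.8 with DMSO in HCT-116, an interaction of 0.38 ± 0.047. The counts were 12 higher and 0 lower with a common total of all genes, and 3 and 1 with median-of-ratios factors.

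PPP1R15A and DDIT3 went the other way. PPP1R15A, the subunit that directs dephosphorylation of eIF2α (chromosome 19, 48872392 to 48876057), had 246, 253 and 252 FPKM with PAA against 85.5 and 83.5 with DMSO in RKO, and 117, 118 and 119 FPKM with PAA against 14.4, 13.9 and 14.9 with DMSO in HCT-116. It rose in both lines, more in HCT-116 (interaction -1.40 ± 0.045), while its highest levels were in RKO with PAA. DDIT3, which encodes CHOP, had 47.9, 46.5 and 39.6 FPKM with PAA against 12.3 and 12.9 with DMSO in RKO, and 48.9, 50.8 and 41.8 FPKM with PAA against 4.94, 6.27 and 9.17 with DMSO in HCT-116, and its interaction of -0.92 ± 0.26 lost the call in 9 alternatives, among them the fits without each of 6 libraries, of which 2 were the RKO DMSO libraries. The C/EBP-ATF element, searched as TGATGNAA on both strands, occurred in 3 of 19 windows of the list, against 1.55% of the co-expressed windows and 3.67% of all windows. Among co-expressed genes it occurred in 1.27% of windows with a higher RKO effect, 1.64% with a lower one and 1.61% with no call. The same 3 shares were 15.8%, 15.2% and 16.1% for TGACNNNGC (ARE core) and 2.53%, 3.76% and 3.85% for TGANTCA (AP-1 site), which were also searched. The window of ASNS (chr7:97872359-97872658, - strand) is shown because ASNS had the largest positive interaction of the list and holds the C/EBP-ATF element 68 bases before the start. Capitals mark the match.
ASNS: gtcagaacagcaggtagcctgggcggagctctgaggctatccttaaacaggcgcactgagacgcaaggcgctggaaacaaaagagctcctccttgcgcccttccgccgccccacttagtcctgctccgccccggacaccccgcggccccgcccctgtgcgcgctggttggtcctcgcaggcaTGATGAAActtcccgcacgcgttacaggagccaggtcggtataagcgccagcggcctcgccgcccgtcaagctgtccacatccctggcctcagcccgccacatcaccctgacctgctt

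Of 23 NRF2 targets 13 rose in RKO and 14 in HCT-116, and SRXN1, HMOX1, SQSTM1, FTL and TXN rose in both and more in HCT-116. SRXN1, sulfiredoxin, which repairs oxidised peroxiredoxins (chromosome 20, 646615 to 653370), had 93.95, 91.4 and 90.2 FPKM with PAA against 50.5 and 47.1 with DMSO in RKO, and 437, 445 and 446 FPKM with PAA against 57.1, 57.5 and 57.2 with DMSO in HCT-116. The DMSO levels of SRXN1 were close in the lines, and the interaction was -2.03 ± 0.046 (limma, adjusted p = 3.6e-08). HMOX1, heme oxygenase, had 145, 151 and 145 FPKM with PAA against 39.5 and 37.3 with DMSO in RKO, and 163, 164 and 172 FPKM with PAA against 17.4, 16.9 and 18 with DMSO in HCT-116, with an interaction of -1.27 ± 0.057. PAA brought HMOX1 to nearby levels from a higher DMSO level in RKO. SQSTM1, the autophagy receptor p62 that also binds KEAP1, had 115, 119.6 and 113 FPKM with PAA against 56.5 and 56.7 with DMSO in RKO, and 257, 258 and 258 FPKM with PAA against 77.7, 75.7 and 80.05 with DMSO in HCT-116 (interaction -0.69 ± 0.046).

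FTL, the ferritin light chain, and TXN, thioredoxin, had interactions of -0.78 ± 0.051 and -0.53 ± 0.094, neither called with quantile normalization (-0.14 and -0.27). The pentose phosphate enzymes TALDO1 (interaction 0.43 ± 0.096) and TKT (interaction 0.39 ± 0.086) and the exporter ABCC1 (interaction 0.53 ± 0.069) were the 3 with a higher RKO effect, through a rise in RKO for TALDO1 and falls in HCT-116 for TKT and ABCC1. In all, 3 of the 23 had a higher and 8 a lower RKO effect (21.3% and 9.68% of all tested genes). The list held 40 genes, of which these 23 reached the DMSO level in both lines. The median interaction of -0.16 came to 0.00 under a common total of all genes, with 6 higher and 5 lower. NFE2L2, which encodes NRF2 itself, had 12.3, 11.6 and 9.28 FPKM with PAA against 3.395 and 8.902 with DMSO in RKO, and 24.97, 24.3 and 19.98 FPKM with PAA against 19.2, 19.7 and 18.1 with DMSO in HCT-116. It rose in RKO and had no call in HCT-116 or for the interaction (adjusted p = 0.276), which rested on the RKO DMSO libraries: it was 1.18 and called without replicate 3 and 0.01 with no call without replicate 2.

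More lysosomal genes had a higher than a lower RKO effect. Of 34, 17 rose and none fell in RKO, and 5 rose and 8 fell in HCT-116. A higher RKO effect was called for 16 and a lower one for 2 (21.3% and 9.68% of all tested genes). The counts were 21 higher and 2 lower with a common total of all genes, and 10 and 2 with median-of-ratios factors. The median interaction was 0.33 (between 0.22 and 0.50 across the alternatives), against 0.08 over all tested genes. ATP6V1B2, a subunit of the proton pump V-ATPase, had 28.2, 27.9 and 28.1 FPKM with PAA against 17.5 and 17.4 with DMSO in RKO, and 8.46, 8.13 and 9.01 FPKM with PAA against 9.07, 9.098 and 8.68 with DMSO in HCT-116 (interaction 0.72 ± 0.059), and ATP6V1A, its catalytic subunit, fell in HCT-116 (-0.66 ± 0.059) with no call in RKO. CTSA, a protective carboxypeptidase, rose in RKO (0.38 ± 0.057) and fell in HCT-116 (-0.27 ± 0.051).

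NPC2, a cholesterol carrier of the lysosome lumen, had an interaction of 0.85 ± 0.21, with no call without RKO DMSO replicate 3. The 2 genes with a lower RKO effect rose in both lines. The transcription factor TFE3, a regulator of lysosomal genes, had 28.9, 30.1 and 29.01 FPKM with PAA against 21.1 and 20.5 with DMSO in RKO, and 16.9, 15.9 and 16.6 FPKM with PAA against 5.69, 5.44 and 5.91 with DMSO in HCT-116, and CTSL, the protease cathepsin L, had 214, 211 and 216 FPKM with PAA against 149.8 and 146 with DMSO in RKO, and 96.6, 94.5 and 91.6 FPKM with PAA against 33.6, 33.98 and 35.99 with DMSO in HCT-116. Their interactions were -0.91 ± 0.058 and -0.90 ± 0.050. Among 15 autophagy genes 3 had a higher and 2 a lower RKO effect (21.3% and 9.68% of all tested genes). The counts were 6 higher and 1 lower with a common total of all genes, and 2 and 3 with median-of-ratios factors. GABARAPL2, an ATG8-family protein of autophagosomes, rose in RKO alone, with 27.9, 33.95 and 34.6 FPKM with PAA against 14.03 and 12.3 with DMSO in RKO, and 11.8, 9.34 and 11.3 FPKM with PAA against 11.7, 12 and 9.61 with DMSO in HCT-116 (interaction 1.26 ± 0.18), and ATG12, a conjugated autophagy factor, rose in RKO (0.15) and fell in HCT-116 (-0.69).

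**Figure D5:**
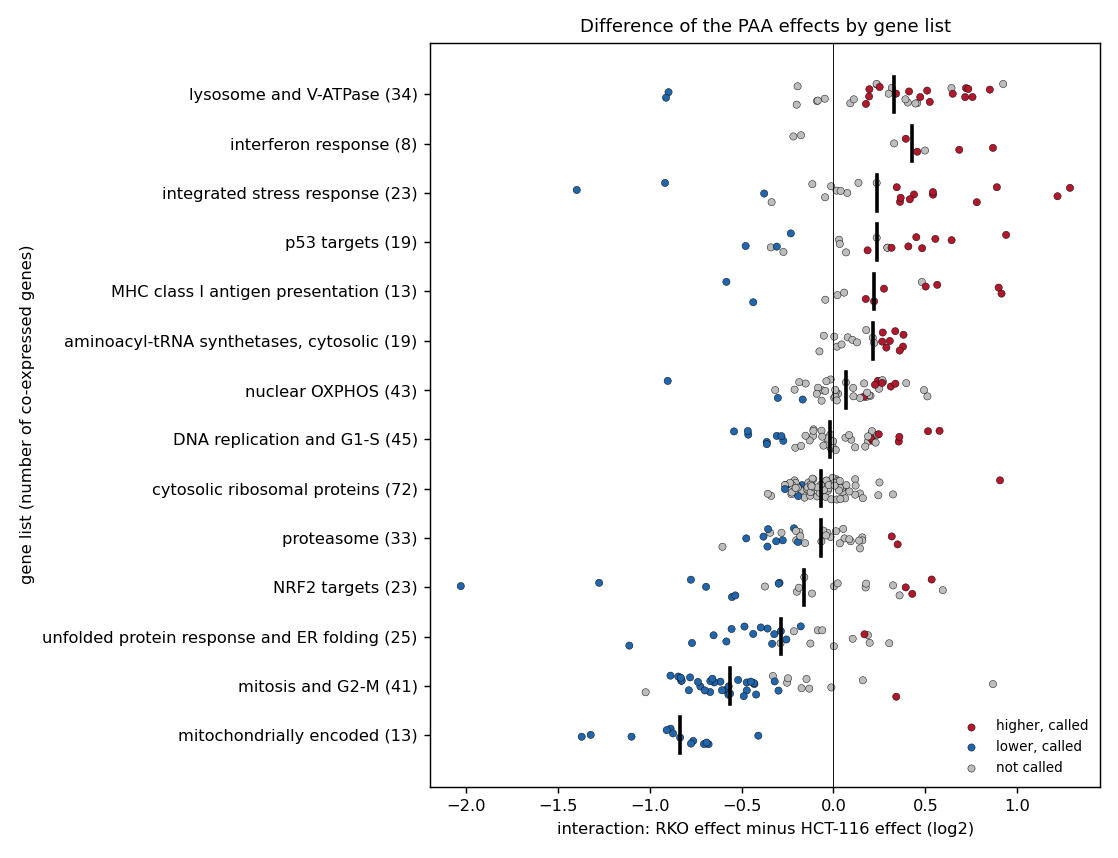
Interaction (horizontal axis, RKO effect minus HCT-116 effect, log2 scale) of each co-expressed gene of 14 gene lists (rows, with the number of genes), with called genes in red or blue, other genes in grey and a bar at the median. All 13 mitochondrially encoded genes and 30 of 41 mitosis genes lie at called negative values, the lysosome and integrated stress response lists lie mostly above 0, and medians near 0, such as those of nuclear OXPHOS and DNA replication, change sign with the scaling.

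p53 targets had 8 higher and 3 lower RKO effects among 19 (21.3% and 9.68% of all tested genes). The list held 34 genes, of which these 19 reached the DMSO level in both lines. Their median interaction was 0.24, between 0.12 and 0.40 across the alternatives. The counts were 10 higher and 1 lower with a common total of all genes, and 5 and 3 with median-of-ratios factors. BTG2, an antiproliferative factor, rose in RKO and fell in HCT-116, with 14.3, 14.99 and 14.3 FPKM with PAA against 8.802 and 10.04 with DMSO in RKO, and 16.7, 17.1 and 16.8 FPKM with PAA against 22.6, 21.9 and 21.4 with DMSO in HCT-116 (interaction 0.94 ± 0.070). RRM2B, a ribonucleotide reductase subunit induced by p53, did the same (0.37 ± 0.043 in RKO and -0.27 ± 0.039 in HCT-116). TNFRSF10B, the death receptor DR5, rose in both lines and more in HCT-116 (interaction -0.48 ± 0.046, and -0.31 with a common total of all genes).

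MHC class I antigen presentation had 7 higher and 2 lower RKO effects among 13 (median interaction 0.22). The interferon response had 4 higher and none lower among 8 (median 0.42, between 0.27 and 0.58 across the alternatives). Of all tested genes 21.3% were higher and 9.68% lower. The lists held 21 and 38 genes, of which only these 13 and 8 reached the DMSO level in both lines. With median-of-ratios factors the interferon genes had 4 higher and 2 lower, and the class I genes 4 and 2. TAPBP, tapasin, which loads peptide onto class I molecules, had 19.8, 19.7 and 19.4 FPKM with PAA against 16.6 and 16.7 with DMSO in RKO, and 11.4, 10.9 and 10.7 FPKM with PAA against 18.4, 17.1 and 19.3 with DMSO in HCT-116, and an interaction of 0.91 ± 0.067. TAP1, a subunit of the peptide transporter, and HLA-E, a class I molecule, rose in RKO (0.47 ± 0.066 and 0.90 ± 0.036). HLA-E rose less in HCT-116 (0.40 ± 0.033) and TAP1 had no call there. UBE2L6, the conjugating enzyme of ISG15, fell in both lines and more in HCT-116 (interaction 0.87 ± 0.11).

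ERK output and AP-1 genes split by member. DUSP5, a nuclear ERK phosphatase, had 54.2, 52.03 and 53.5 FPKM with PAA against 45.96 and 45.5 with DMSO in RKO, and 111, 115 and 116 FPKM with PAA against 33.4, 35.1 and 33.6 with DMSO in HCT-116, and an interaction of -1.50 ± 0.047. EPHA2, an ephrin receptor, fell in RKO (-0.26 ± 0.058) and rose in HCT-116 (0.93 ± 0.052). FOSL1, an AP-1 partner of JUN, had 91.5, 98.5 and 92.3 FPKM with PAA against 85.1 and 91.9 with DMSO in RKO, and 81.05, 90.7 and 89.4 FPKM with PAA against 39.4, 39.4 and 40.5 with DMSO in HCT-116. FOSL1 rose in HCT-116 to close to the RKO level and had no call in RKO (interaction -1.02 ± 0.077). PHLDA1 went the other way (interaction 1.01 ± 0.17), as did the JUN relatives JUND (interaction 0.85 ± 0.088) and JUNB (interaction 0.44 ± 0.073). Of 18 genes of ERK feedback and output 6 had a higher and 5 a lower RKO effect (21.3% and 9.68% of all tested genes). These counts were 7 and 4 with a common total of all genes, and 5 and 6 with median-of-ratios factors. Of 9 AP-1 and ATF genes 2 were higher and 4 lower, which were 2 and 2 with a common total of all genes.

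Among Hippo pathway and YAP target genes 6 of 13 had a higher RKO effect and 1, AXL, a lower one (21.3% and 9.68% of all tested genes). The list held 31 genes, of which these 13 reached the DMSO level in both lines. Their median interaction was 0.25, between 0.15 and 0.45 across the alternatives. TEAD2 and TEAD4 are DNA-binding partners of YAP. TEAD2 fell in HCT-116 (-1.12 ± 0.14), with an interaction of 1.18 ± 0.22, and TEAD4 rose in RKO (0.42 ± 0.084), with 0.59 ± 0.11. In the list of integrins and mesenchymal genes, 6 of 13 had a lower and 4 a higher RKO effect (median -0.33, between -0.44 and -0.16 across the alternatives). PLAUR, the urokinase receptor, fell in RKO and rose in HCT-116, with 14.1, 14.96 and 14.2 FPKM with PAA against 18.8 and 19.3 with DMSO in RKO, and 12.03, 12.3 and 12 FPKM with PAA against 6.22, 6.19 and 5.88 with DMSO in HCT-116 (interaction -1.26 ± 0.054). PLAU, urokinase itself, fell in RKO (-1.16 ± 0.055) and had no call in HCT-116 (-0.01 ± 0.049). LGALS1, galectin-1, fell in both and more in RKO (interaction -0.68 ± 0.065).

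Lists of the protein machinery had median interactions near 0. Of all tested genes 21.3% had a higher and 9.68% a lower RKO effect, shares that apply to each list of this paragraph. Of 72 cytosolic ribosomal protein genes 1 had a higher and 6 a lower RKO effect. With PAA 43 rose in RKO and 50 in HCT-116 (25.7% and 21.7% of all tested genes). RPL29 was the one called higher, with 187, 169.9 and 194 FPKM with PAA against 167 and 160.2 with DMSO in RKO, and 129.5, 128 and 121 FPKM with PAA against 217, 207 and 212 with DMSO in HCT-116 (interaction 0.91 ± 0.075). Of 33 proteasome genes 2 were higher and 8 lower, and PSMD12, called lower as deposited (interaction -0.47 ± 0.10), had 0.39 with no call on summed isoforms. The median interactions, -0.07 in both lists, were 0.10 under a common total of all genes. Ribosomal protein genes had 11 higher and 0 lower with a common total of all genes, and 1 and 21 with median-of-ratios factors, and proteasome genes 8 higher and 2 lower with a common total of all genes, and 0 and 15 with median-of-ratios factors. Heat shock genes and chaperones had 4 higher and 9 lower of 32, but 12 higher and 1 lower with a common total of all genes, and 2 and 13 with median-of-ratios factors. DNAJB1, an Hsp40 cochaperone, fell in RKO alone (-0.53 ± 0.075; interaction -0.62 ± 0.10), and HSPA1B, an inducible chaperone gene nearly identical to HSPA1A, fell in both and more in HCT-116 (interaction 0.50 ± 0.046). HSPA1A had an interaction of 1.82 with no call (limma, adjusted p = 0.354), between 0.49 and 2.49 across the alternatives. The split of reads between HSPA1A and HSPA1B is uncertain.

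In the other lists the counts of higher and lower RKO effects were as follows, beside 21.3% and 9.68% of all tested genes. Translation factors had 7 and 3 of 39, ribosome biogenesis 10 and 4 of 46, mitochondrial ribosomal proteins 3 and 5 of 44, and genes of mitochondrial transcription and RNA 2 and 4 of 17. TCA cycle genes had 7 and 2 of 27, nucleotide synthesis 2 and 2 of 23, DNA repair 0 and 4 of 12, SR splicing factors 2 and 3 of 18, and snoRNA hosts 2 and 4 of 10. The polyamine list had 1 and 3 of 10, iron and ferroptosis 5 and 4 of 18, NF-kB genes 3 and 0 of 8, and aldehyde metabolism 0 and 1 of 9. Housekeeping genes had 1 and 5 of 15, and line identity genes 0 and 0 of 4. Where limma made no call in a direction, an unadjusted p under 0.05 was reached by 2 DNA repair genes for a higher effect, by 1 NF-kB gene and 1 interferon gene for a lower one, and by 0 genes of the synthetase, aldehyde, line identity and Wnt lists and of the lysosome list for a fall in RKO. Of the Wnt targets and crypt genes only 2 reached the DMSO level in both lines, and neither was called. The median interactions of these lists lay between -0.21 for SR splicing factors and 0.27 for NF-kB genes. Those of the other lists in this paragraph changed sign under at least 1 alternative, and the counts moved with the scaling: ribosome biogenesis had 20 higher and 1 lower with a common total of all genes, and 1 and 8 with median-of-ratios factors, translation factors 15 higher and 0 lower with a common total of all genes, and 1 and 6 with median-of-ratios factors, and mitochondrial ribosomal proteins 7 higher and 0 lower with a common total of all genes, and 3 and 12 with median-of-ratios factors.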

How the data were processed

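RNA of 11 libraries was measured. The authors deposited FPKM per gene and per isoform, per the file headers. Reads were handled with cutadapt 1.9 and FastQC on GRCh38, per the submitters' processing notes, with the aligner and quantifier not given in the sources used here. Positions come from GENCODE 29. Every column was matched to a sample (0 unmatched). An entry of 0.0001, used for absent genes, was set to 0. Genes with FPKM of 1 or more in 2 or more libraries were tested on log2(FPKM + 1), a scale that understates changes of low genes, with limma 3.58.1 (R 4.3.3; moderated, mean-variance trend, 4 group means, 7 residual degrees of freedom) and Benjamini-Hochberg adjustment over all of them, in Python 3.11.15 and R. The fit was tested on simulated data. No count model could be used on FPKM.

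The genes and lists were chosen with earlier results of these data known. Named by rule were the 12 largest called interactions per direction, passing over pseudogenes (1), the 6 per direction with the largest smaller effect among opposite and among alike genes (95% interval within 0.3 of 0), up to 4 called genes and the extremes of each list, and the genes next to the threshold. CCNB1, CCNB2, CDK1, TOP2A, BUB3, CDC25A, PSAT1, PSPH, PHGDH, SHMT2, HSP90B1, P4HB, PDIA3, MANF, ATF6, XBP1, CRELD2, SERP1, EIF2A, TRIB3, SLC7A5, TXN, TALDO1, TKT, ABCC1, ATP6V1B2, ATP6V1A, CTSA and HLA-E were added after their values were seen. Some genes that the rule names are not reported here. Alternatives were 4 scalings (common total of all genes, common total of nuclear genes, median-of-ratios factors, quantile normalization), pseudocounts of 0.1 and 5, other filters, other thresholds, isoform sums, a replicate block and leaving out each library.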

Additional observations from a re-analysis of the deposited data

Results flagged for a closer look

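The genes in this section were picked out because the test of the difference between the PAA effects of the lines, limma's interaction with Benjamini-Hochberg adjustment over all tested genes, was called for them, and each was among the genes named by size of interaction or by opposite direction. The counts of that test stand with them: 1003 genes with a higher and 759 with a lower RKO effect, and 257 with opposite called directions.

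Positive interactions were 2.32 for SOX4, 1.62 for SMIM3, 1.53 for SAT1, 1.49 for PAQR4, 1.48 for CRABP2, 1.42 for MSX1 and 1.40 for FAM3C. They were 1.38 for GCAT, 1.38 for LAMB1, 1.37 for LZTS2, 1.36 for METRN and 1.34 for SLC17A5, and in the class of opposite directions 1.12 for GNPDA1 and 1.02 for LENG8. LENG8 had no call when isoform values were summed.

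Negative interactions were -2.51 for JUN, -2.19 for SEMA7A, -2.15 for H1-2, -2.07 for UPP1, -2.03 for SRXN1 and -2.02 for SFN. They were -1.83 for C19orf33, -1.81 for TMSB4X, -1.80 for LAMB3, -1.79 for RHOF and -1.74 for ANGPTL4, and in the class of opposite directions -1.62 for AXL and -1.47 for MT1X. All of these genes other than LENG8 were called in the same direction under every alternative in which they could be tested.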

How the results depend on the processing

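Counts of higher and lower RKO effects, 1003 and 759 as deposited, were 1801 and 327 with a common total of all genes and 635 and 1283 with median-of-ratios factors. Choosing genes at a mean DMSO FPKM of 2 kept 8767 genes, with 1740 higher, 977 lower and 393 opposite calls. Choosing at 10 kept 3181 genes, with 489 higher, 534 lower and 143 opposite calls, 1659 PAA calls in RKO and 1797 in HCT-116. The totals differ with the number of genes kept, but the balance moved as well. Of the interaction calls, 64.0% were higher in RKO at 2, 56.9% at 5 and 47.8% at 10. Summing isoform values gave 159 genes in opposite directions. Leaving out 1 library at a time gave 795 to 947 higher calls, 567 to 725 lower calls and 170 to 235 opposite ones, with 170 without RKO DMSO replicate 2, which leaves that group with 1 library whose spread is assumed to be that of the other groups. The other pseudocounts (0.1 and 5), filters on low values, choices of genes by PAA or overall mean, and limma without a trend or with robust hyperparameters kept the higher, lower and opposite counts within 1.5 times of those reported.

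Libraries share replicate numbers, but the deviations of same-numbered PAA and DMSO libraries from their group means correlated across genes at 0.0666, -0.134 and -0.134 in HCT-116 and at -0.142 and -0.0764 in RKO, so the numbers were not taken to pair the samples. With a replicate block within each line, 631 genes were higher, 463 lower and 144 opposite, on 3 residual degrees of freedom against 7.

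Of 242 named genes, 200 were called as reported and 128 of these under each alternative. The alternatives gave 5206 values on the same side of the threshold, 322 that lost the call and 35 that gained it. Among the genes called as reported, 3 turned direction. MT-ND1 was 0.25, with a call, and TUBB -0.10, with none, under quantile normalization, and PSMD12 was 0.39 when isoform values were summed. Genes not called as reported could also change sign without a call, and such values are among the 5206. PCNA was -0.05 as reported and 0.11 under a common total of all genes. MYC was -0.08 as reported and 1.06 without RKO DMSO replicate 3. For the turns and for lost calls, the cause was not tested. Read counts are not in the tables, so the part of low depth in these spreads is unknown.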

Other observations

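Glycolytic and lipid genes not described so far split by member. PFKM, a phosphofructokinase, rose in RKO and fell in HCT-116, with 36.8, 36.5 and 34.8 FPKM with PAA against 28.5 and 27.3 with DMSO in RKO, and 12.9, 13.1 and 13.1 FPKM with PAA against 20.8, 18.03 and 20.6 with DMSO in HCT-116 (interaction 0.92 ± 0.080). ALDOC, an aldolase, fell in both lines and more in HCT-116 (interaction 0.83 ± 0.11), while LDHA, lactate dehydrogenase, fell in both and more in RKO (interaction -0.52 ± 0.11). Of 25 genes of hypoxia and glycolysis 5 had a higher and 5 a lower RKO effect (21.3% and 9.68% of all tested genes). The counts were 9 higher and 1 lower with a common total of all genes, and 4 and 7 with median-of-ratios factors. SCD, the fatty acid desaturase, and LSS, which closes the sterol ring, fell in HCT-116 with no call in RKO (interactions 0.65 ± 0.035 and 0.83 ± 0.071), and ELOVL6, a fatty acid elongase, fell in RKO with no call in HCT-116 (interaction -0.75 ± 0.061). The lists had 4 higher and 3 lower of 23 for cholesterol synthesis and 3 and 2 of 13 for fatty acid synthesis, beside the same shares of all tested genes. Cholesterol synthesis had 11 higher and 0 lower with a common total of all genes, and 1 and 6 with median-of-ratios factors, and fatty acid synthesis 8 higher and 2 lower with a common total of all genes, and 3 and 2 with median-of-ratios factors.

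Apoptosis regulators also moved unequally. MCL1, an antiapoptotic protein, fell in RKO and rose in HCT-116, with 135, 138 and 138 FPKM with PAA against 202 and 196 with DMSO in RKO, and 56.3, 58.6 and 59.7 FPKM with PAA against 51.4, 44.1 and 44.99 with DMSO in HCT-116 (interaction -0.85 ± 0.081). BAK1, a pore-forming protein of apoptosis, rose in HCT-116 with no call in RKO (interaction -1.12 ± 0.28), and its interaction lost the call in 2 alternatives. Of 22 apoptosis regulators 4 were higher and 4 lower (2 and 5 with median-of-ratios factors), of 4 histone genes 1 and 2, and of 8 genes of epithelial adhesion and keratins 1 and 1. Of all tested genes 21.3% were higher and 9.68% lower.

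Although levels of SOX4, SAT1, SEMA7A and ASNS were close between the lines with PAA, this was not general. The absolute difference of the group means between the lines was smaller with PAA than with DMSO in 47.0% of the 5623 genes and in 44.2% of the 1762 called genes, with medians of 0.343 with PAA and 0.324 with DMSO over all of them (log2 scale). The share comes from the same values as the interaction and was not tested.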
